A study of Mus musculus with 9 samples.

Results

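The proteasome genes described here are the rows of the gene table whose symbol is Psma, Psmb, Psmc, Psmd, Psme, Psmf or Psmg followed by a digit, without the immunoproteasome genes Psmb8, Psmb9 and Psmb10. The rule takes 47 of 23936 genes with a symbol. It goes by symbol and used no measured value, but the members were chosen with earlier results of these data known. The data are RNA-seq of mouse OT-I CD8 T cells, which carry a transgenic T cell receptor for a peptide of ovalbumin. The 9 libraries form 3 groups of 3: naive cells taken from the spleen, cells primed and taken there ("spleen-primed"), and cells primed in the mesenteric lymph node ("MLN-primed"). All 3 groups hold OT-I cells, and no other allele or agent is named. The titles join the spleen-primed cells with "iv" and the MLN-primed cells with "oral", so the organ and what these words stand for change together and cannot be told apart. Between MLN-primed and naive cells, organ and priming likewise change together and cannot be told apart. The labels do not name the time after priming, the sorting gate or the animals behind each library. The p-values therefore rest on the spread among libraries of a group, part or all of which may be technical.

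The proteasome degrades proteins tagged with ubiquitin. Its 20S core is a barrel of alpha subunits (Psma genes), which form the gated ends, and beta subunits (Psmb genes), of which Psmb5, Psmb6 and Psmb7 cut proteins. The 19S cap binds ubiquitin chains, removes them and unfolds the substrate with a ring of ATPases (Psmc genes), and its other subunits are Psmd genes. Other activators (Psme genes) can open the core in place of the 19S cap, and chaperones (Psmg genes for the core, some Psmd genes for the cap) help assembly. In CD8 T cells, the proteasome supplies peptides for MHC class I and removes regulators of the cell cycle, and its catalytic subunits can be replaced by those of the immunoproteasome.

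Levels are FPKM, in which fragments are scaled for the length of the transcript and the depth of the library, as the authors deposited them. The libraries summed to 612887 to 720165 FPKM, with 9469 to 9667 genes at 1 FPKM or more. The summed level of 5 CD8 T cell markers was 2894 to 3203 FPKM in naive, 1980 to 2040 in the spleen-primed and 1377 to 1458 in the MLN-primed libraries. Cd4 and Cd79a stayed under 0.4 FPKM. Of the epithelial genes, Krt8 was listed at 0 throughout and Epcam at 0.349 to 0.909 FPKM. The NK cell gene Klrb1c reached 3.46 FPKM in a spleen-primed library. The red cell gene Hba-a1 varied widely, at 4.74 to 21.8 FPKM in naive, 1.57 to 17.7 in the spleen-primed and 0.314 to 32.8 in the MLN-primed libraries. The summed level of 6 myeloid and dendritic genes was 64.9 to 119 FPKM in naive, 125 to 135 in the spleen-primed and 44.5 to 58.8 in the MLN-primed libraries. Within it, Cd74 was highest in naive libraries (38.1 to 66.8 FPKM) and Itgax in spleen-primed ones (89.7 to 103), while Lyz2 reached at most 9.75 and Csf1r at most 0.551. The part of these marker genes' cell types in the results on the proteasome genes was not tested. In bulk RNA, fewer cells of a type and less RNA per cell cannot be told apart.

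Of the 47 members, 45 were at 1 FPKM or more in 3 or more libraries, which was the condition for testing. They comprise 7 alpha and 7 beta genes of the 20S core, 6 ATPase and 11 other genes of the 19S cap, 4 chaperones of the core, 3 chaperones of the cap's base (Psmd5, Psmd9 and Psmd10), 5 activators or inhibitors, and 2 genes that meet only the letters of the rule. Those 2 genes are Psmc3ip, a cofactor of meiotic recombination, and Psme2b, a near copy of Psme2. The members left untested were Psma8, an alpha subunit of male germ cells that reached at most 0.233 FPKM, and Psmb11, a beta subunit of the thymus epithelium that reached at most 0.00968 FPKM. The members lie on 16 chromosomes, with 10 of them on chromosome 11, and 14 overlap another annotated gene, so the authors' counting could have split or joined reads there.

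Every gene of the 20S core and of the 19S cap rose in both primed groups against naive cells (limma adjusted p under 0.05), where 43.1% and 45.5% of all 10185 tested genes were called higher in spleen-primed and MLN-primed cells. The median change of these 31 genes was 2.17-fold in spleen-primed cells (range 1.28 to 3.27) and 2.57-fold in MLN-primed cells (range 1.36 to 3.91). Under quantile normalisation, 29 of the 31 kept their call, and Psmb1 and Psmd4 did not. The activator subunit Psme1 fell in both primed groups. Between the primed groups, 12 of 17 cap genes, all 4 of the core's chaperones and 1 of 14 core genes were called higher in MLN-primed cells, beside 17.3% of all tested genes. Over the alternative settings, these counts ran from 9 to 13 cap genes, 2 to 4 chaperones and 0 to 3 core genes.

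**Figure D1:**
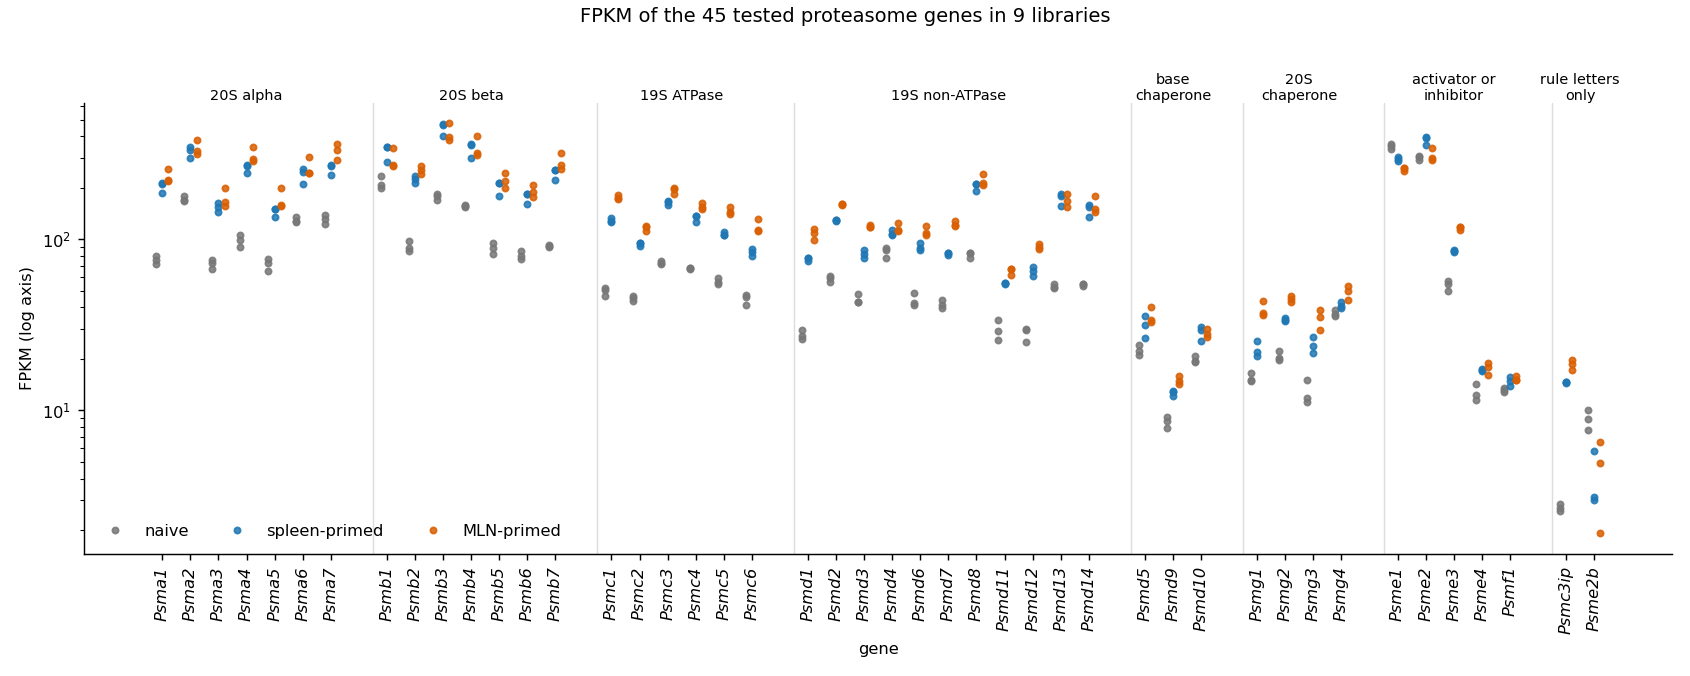
FPKM (log axis) of the 45 tested members in each of 9 libraries, by role in the proteasome and by group; each point is 1 library. All 31 core and cap genes lie higher in the primed than in the naive libraries, and Psme1 lies lower.

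The catalytic beta subunits of the core are described first. Psmb5, which carries the chymotrypsin-like activity, stood at 95.04, 89.4 and 82.0 FPKM in naive libraries 1 to 3, at 213, 212 and 179 in the spleen-primed and at 244, 199 and 219 in the MLN-primed libraries. The naive libraries lay below all primed ones, and the primed groups overlapped. Psmb5 rose by 1.17 ± 0.10 in spleen-primed cells (log2 of FPKM + 1, ± SE, limma adjusted p = 2.29e-06) and by 1.30 ± 0.10 in MLN-primed cells (adjusted p = 8.18e-07). The difference between the primed groups was 0.13 ± 0.10 (limma adjusted p = 0.356).

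Psmb6, which carries the caspase-like activity, stood at 77, 85.6 and 79.8 FPKM in naive, 185, 183 and 159.8 in the spleen-primed and 209, 176 and 189 in the MLN-primed libraries. Psmb7, which carries the trypsin-like activity, stood at 91.3, 89.8 and 92.4 FPKM in naive, 253, 252 and 221 in the spleen-primed and 318, 259 and 271 in the MLN-primed libraries. For Psmb7 every MLN-primed library lay above every spleen-primed library, while for Psmb6 these groups overlapped. The log2 change against naive cells was 1.11 and 1.23 for Psmb6 and 1.40 and 1.62 for Psmb7, in spleen-primed and MLN-primed cells (SE 0.09 each, limma adjusted p at most 1.19e-06). Neither passed in the comparison of primed groups (adjusted p = 0.339 for Psmb6 and 0.0846 for Psmb7).

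The other beta genes and the alpha genes followed with a wide range. Naive levels of the 14 core genes ran from a mean of 71.5 FPKM (Psma5) to 214 FPKM (Psmb1), a 2.997-fold range. Psma4, part of the alpha ring, showed the largest change of an alpha gene in MLN-primed cells, from 98.1 ± 7.78 to 308 ± 31.8 FPKM (SD, n = 3). Psmb1, a beta subunit without catalytic activity, changed least among the core genes. It stood at 208, 235 and 200.1 FPKM in naive, 347, 346 and 283 in the spleen-primed and 339, 267 and 269.6 in the MLN-primed libraries. Its log2 change was 0.60 ± 0.12 in the spleen-primed and 0.44 ± 0.12 in the MLN-primed cells (limma adjusted p = 0.00099 and 0.00603), but neither call held under quantile normalisation, where the changes were -0.024 and -0.17, and the MLN-primed call was also lost under median-of-ratios scaling. Its share of the summed FPKM of the 14 core genes went from 13% ± 1.01 in naive to 9.18% ± 0.320 in the spleen-primed and 7.63% ± 0.242 in the MLN-primed libraries (SD, n = 3).

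The summed level of the 14 core genes was 1649 ± 43.6 FPKM in naive, 3539 ± 285 in the spleen-primed and 3817 ± 418 in the MLN-primed libraries (SD, n = 3). Naive and primed libraries did not overlap (exact two-sided permutation p = 0.1, the smallest that 3 against 3 allows), and the primed groups did (exact p = 0.6).

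The cap's ATPase ring rose as a whole. Levels of the 6 Psmc genes ran from 41.5 to 74.3 FPKM over naive, 80.2 to 168 over spleen-primed and 111 to 198 over MLN-primed libraries. Psmc1 had the largest change of the 6, with 51.9, 46.8 and 50.6 FPKM in naive, 126, 128 and 133 in the spleen-primed and 175, 172 and 180.1 in the MLN-primed libraries. The 3 groups were fully apart, with MLN-primed libraries highest. The log2 change of Psmc1 was 1.36 ± 0.06 in the spleen-primed and 1.80 ± 0.06 in the MLN-primed cells against naive (limma adjusted p = 2.27e-08 and 2.71e-09). MLN-primed cells exceeded spleen-primed cells by 0.44 ± 0.06 (limma adjusted p = 0.000702).

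Among the other cap genes, Psmd1, a large scaffold of the base, stood at 29.5, 26.0 and 27.1 FPKM in naive, 77.2, 77.2 and 74.7 in the spleen-primed and 115, 109 and 98.6 in the MLN-primed libraries. Its change in MLN-primed cells was the largest of all core and cap genes (log2 1.93 ± 0.07, limma adjusted p = 6.38e-09), and it was 1.44 ± 0.07 in spleen-primed cells (adjusted p = 6.51e-08). Psmd13, a subunit of the lid, had the largest change of these genes in spleen-primed cells. It stood at 55.0, 52.4 and 51.6 FPKM in naive, 179.6, 184 and 156 in the spleen-primed and 183, 154 and 167 in the MLN-primed libraries, and the primed groups overlapped. The log2 change of Psmd13 against naive cells was 1.69 ± 0.09 and 1.64 ± 0.09 (limma adjusted p = 5.58e-08 and 5.26e-08).

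Psmd3 and Psmd7 are lid subunits, and Psmd7 pairs with the deubiquitinase Psmd14. Psmd3 stood at 43.0, 42.9 and 48.0 FPKM in naive, 78.1, 82.5 and 86.0 in the spleen-primed and 117, 118 and 122 in the MLN-primed libraries. Psmd7 stood at 43.9, 41.4 and 39.6 FPKM in naive, 81.2, 83.1 and 82.6 in the spleen-primed and 127, 119 and 122 in the MLN-primed libraries. For both genes each group was apart from the next. MLN-primed cells exceeded spleen-primed cells on the log2 scale by 0.53 ± 0.07 for Psmd3 and 0.57 ± 0.06 for Psmd7 (limma adjusted p = 0.000459 and 0.000178), the largest differences among the cap genes. Psmd14 itself went from 54.5 ± 0.835 FPKM in naive to 149 ± 12.5 in the spleen-primed and 158 ± 17.8 in the MLN-primed libraries (SD, n = 3), and the difference between primed groups did not pass (log2 0.08 ± 0.09, limma adjusted p = 0.564).

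The ubiquitin receptor Psmd4 changed least of the cap genes. It stood at 77.8, 86.5 and 88.9 FPKM in naive, 106, 107 and 113 in the spleen-primed and 113, 112 and 125 in the MLN-primed libraries. It was the highest cap gene in naive libraries, but Psmd8, another lid subunit, was the highest in both primed groups (204 and 219.9 FPKM). The log2 change of Psmd4 was 0.36 ± 0.07 and 0.46 ± 0.07 (limma adjusted p = 0.00128 and 0.000206). Under quantile normalisation the sign turned, to -0.20 in spleen-primed cells, where it was called lower, and to -0.16 in MLN-primed cells, which did not pass. The spleen-primed call was also lost with the length trend removed. Its share of the summed FPKM of the 17 cap genes went from 9.55% ± 0.706 to 5.63% ± 0.320 and 4.98% ± 0.378 (SD, n = 3), in the order naive, spleen-primed and MLN-primed. Psmd13's share was 5.99% ± 0.227, 8.98% ± 0.619 and 7.17% ± 0.390 in the same order.

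The summed level of the 17 cap genes was 884 ± 18.5 FPKM in naive, 1927 ± 40.5 in the spleen-primed and 2343 ± 80.9 in the MLN-primed libraries (SD, n = 3). All 3 groups were apart from one another (exact two-sided permutation p = 0.1 for each pair, the smallest possible). The mean log2 level of cap genes minus that of core genes was -1.14 ± 0.0512 in naive, -1.17 ± 0.0958 in the spleen-primed and -0.98 ± 0.111 in the MLN-primed libraries, and the primed groups overlapped (exact p = 0.2). The cap and the core were therefore not shown to differ in how much they changed between primed groups.

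The core's chaperones act in pairs, Psmg1 with Psmg2 and Psmg3 with Psmg4, and help build the alpha ring. Psmg1 stood at 16.6, 14.8 and 15.1 FPKM in naive, 25.5, 21.8 and 20.9 in the spleen-primed and 43.7, 35.9 and 37.3 in the MLN-primed libraries. Psmg2 stood at 22.4, 20.2 and 19.7 FPKM in naive, 34.8, 33.2 and 33.7 in the spleen-primed and 46.6, 42.7 and 44.6 in the MLN-primed libraries. In both genes the 3 groups were apart and ordered naive, spleen-primed, MLN-primed. Psmg1 had the largest difference between the primed groups of all members (log2 0.75 ± 0.10, limma adjusted p = 0.000598), and that of Psmg2 was 0.39 ± 0.07 (adjusted p = 0.0027).

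Psmg3 stood at 11.2, 11.8 and 15.1 FPKM in naive, 26.7, 23.8 and 21.8 in the spleen-primed and 38.6, 29.3 and 35.2 in the MLN-primed libraries. Psmg4 stood at 35.8, 38.7 and 36.7 FPKM in naive, 40.5, 42.9 and 39.8 in the spleen-primed and 53.5, 44.1 and 49.5 in the MLN-primed libraries. Psmg4 thus started as the most abundant chaperone of the 4 and had their smallest change. It passed against naive cells in MLN-primed (log2 0.39 ± 0.08, limma adjusted p = 0.00111) and not in spleen-primed cells (0.14 ± 0.08, adjusted p = 0.122). With the trend of levels over transcript length removed, the change was -0.15 in MLN-primed and -0.41 in spleen-primed cells, and the latter was called lower. The MLN-primed call of Psmg4 was also lost under median-of-ratios scaling and under quantile normalisation. Quantile normalisation called Psmg4 lower in spleen-primed cells as well (-0.24). Psmg3 rose in both the spleen-primed and the MLN-primed cells (0.88 ± 0.13 and 1.37 ± 0.13, limma adjusted p = 0.000168 and 5.36e-06).

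The mean log2 level of the 4 chaperones minus that of the 14 core genes was -2.42 ± 0.0558 in naive, -2.98 ± 0.0605 in the spleen-primed and -2.64 ± 0.0590 in the MLN-primed libraries (SD, n = 3). The groups did not overlap (exact two-sided permutation p = 0.1 for each pair, the smallest possible), so relative to the core the chaperones were lowest in spleen-primed cells. The 3 chaperones of the cap's base were higher in both primed groups than in naive cells (Psmd9, 8.56 ± 0.668 FPKM in naive, 12.6 ± 0.408 in the spleen-primed and 15.0 ± 0.847 in the MLN-primed libraries), and none passed between the primed groups. The calls of Psmd5 and Psmd10 against naive cells were lost under quantile normalisation.

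**Figure D2:**
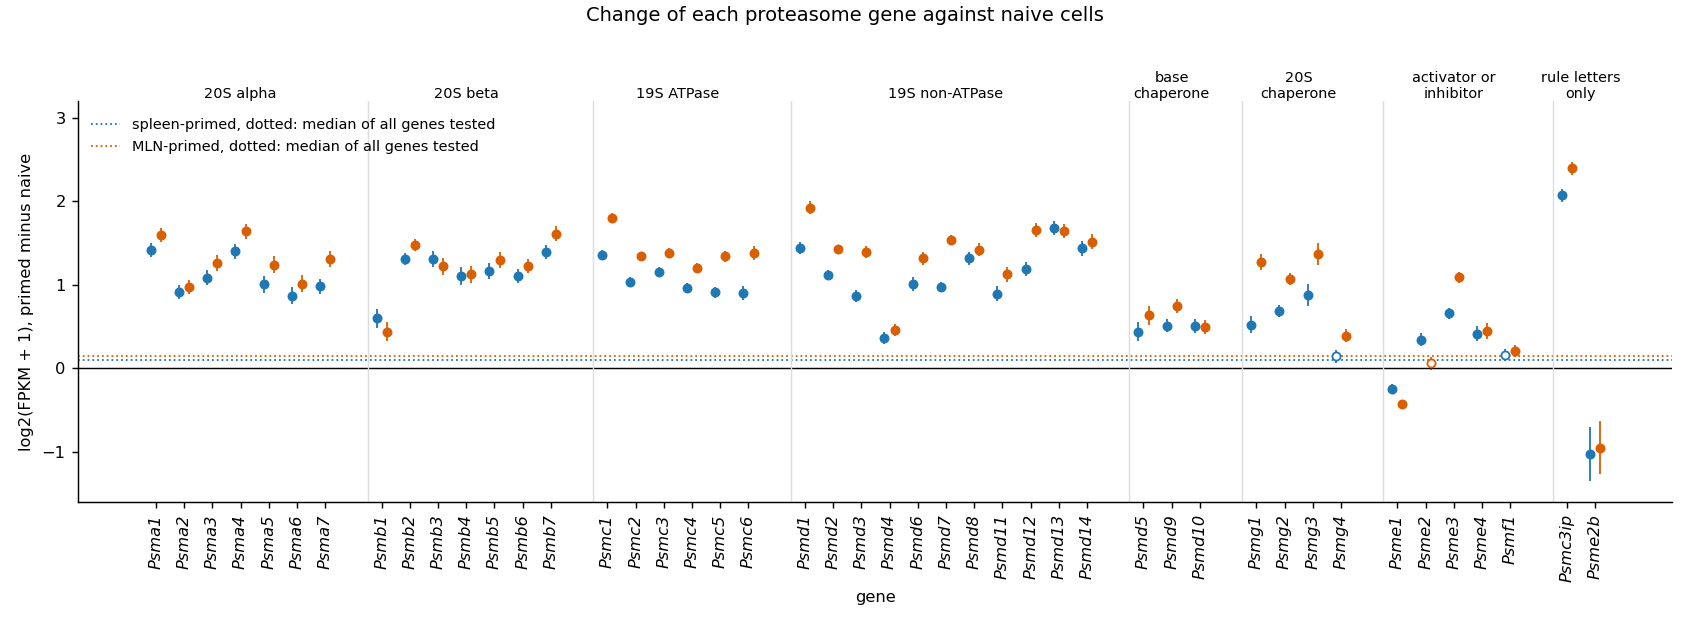
Difference in log2(FPKM + 1) between primed and naive cells for each tested member (points, with SE), by role; filled points passed limma's adjusted p of 0.05, and dotted lines mark the median over all tested genes (0.10 and 0.15). Core and cap genes lie above those medians, and Psme1 and Psme2b lie below 0 in both groups.

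The activators did not move together. Psme1 and Psme2 encode the partners of the interferon-inducible cap that binds the core without using ubiquitin, and they are neighbours at chr14:55578494-55581527 and chr14:55587440-55591101 (GRCm38.p6). Psme1 stood at 336, 349.5 and 359 FPKM in naive, 296, 286 and 300.2 in the spleen-primed and 251, 259.5 and 262 in the MLN-primed libraries. The groups were apart and ordered downwards, with naive cells highest. Psme1 fell by 0.24 ± 0.06 in the spleen-primed and by 0.43 ± 0.06 in the MLN-primed cells on the log2 scale (limma adjusted p = 0.00292 and 5.13e-05), and both calls held in all 20 alternative settings tried.

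Psme2 stood at 301, 291 and 305 FPKM in naive, 395, 388 and 353 in the spleen-primed and 343, 299.6 and 292 in the MLN-primed libraries. Only the spleen-primed group was apart from naive cells (log2 0.34 ± 0.08, limma adjusted p = 0.00247), and this call was lost under median-of-ratios scaling and with the length trend removed, where the change was -0.031. Under quantile normalisation Psme2 was called lower in spleen-primed cells (-0.30). In MLN-primed cells the change was 0.06 ± 0.08 (limma adjusted p = 0.508), and Psme2 was called lower there under quantile normalisation (-0.55) and with the length trend removed (-0.31). The direction of Psme2 against naive cells thus depends on these settings. The ratio of Psme2 to Psme1 was 0.858 ± 0.0331 in naive, 1.29 ± 0.0997 in the spleen-primed and 1.21 ± 0.134 in the MLN-primed libraries (SD, n = 3). Psme2b, which shares 99.4% of 794 aligned transcript positions with Psme2, was low, at 7.65, 10.04 and 8.90 FPKM in naive, 3.01, 3.12 and 5.75 in the spleen-primed and 1.92, 4.96 and 6.51 in the MLN-primed libraries. Reads of these copies could have been split between them, so the values of both are uncertain, and Psme2b's calls against naive cells were lost without naive replicate 2 and in other settings.

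Psme3, the nuclear activator that degrades some proteins without ubiquitin, rose in both primed groups. It stood at 57.1, 49.7 and 55.0 FPKM in naive, 85.8, 83.9 and 86.9 in the spleen-primed and 117, 117 and 113 in the MLN-primed libraries, with each group apart. The log2 change was 0.66 ± 0.06 and 1.09 ± 0.06 against naive cells (limma adjusted p = 7.39e-06 and 1.37e-07) and 0.43 ± 0.06 between the primed groups (adjusted p = 0.00107). The ratio of Psme3 to Psme1 went from 0.155 ± 0.0139 in naive to 0.291 ± 0.00247 in the spleen-primed and 0.450 ± 0.0177 in the MLN-primed libraries (SD, n = 3), with no overlap (exact two-sided permutation p = 0.1 for each pair).

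Psme4, a large nuclear activator, was low, at 14.3, 11.5 and 12.3 FPKM in naive, 16.9, 17.2 and 17.5 in the spleen-primed and 17.9, 18.8 and 16.1 in the MLN-primed libraries. It rose by 0.42 ± 0.09 and 0.45 ± 0.09 on the log2 scale (limma adjusted p = 0.00218 and 0.00128). Psmf1, which binds the core and blocks it in vitro, stood at 13.1, 12.8 and 13.5 FPKM in naive, 13.9, 14.8 and 15.6 in the spleen-primed and 15.1, 15.8 and 15.1 in the MLN-primed libraries. Its change of 0.15 ± 0.07 in spleen-primed cells did not pass (limma adjusted p = 0.0716). That in MLN-primed cells, 0.21 ± 0.07, passed (adjusted p = 0.021) but was lost under both other scalings and without naive replicate 2 or MLN-primed replicate 2. The summed level of these 5 genes was 727 ± 16.0 FPKM in naive, 790.2 ± 17.2 in the spleen-primed and 718 ± 23.8 in the MLN-primed libraries. As deposited, the spleen-primed libraries lay above all others (exact two-sided permutation p = 0.1 for both comparisons, the smallest possible), and naive and MLN-primed libraries overlapped. Under median-of-ratios scaling the means were 775 FPKM in naive, 773 in the spleen-primed and 679.8 in the MLN-primed libraries. The excess of spleen-primed over naive libraries thus depends on the scaling.

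Psmc3ip had the largest change of the 45 tested genes in both primed groups. It stood at 2.57, 2.84 and 2.70 FPKM in naive, 14.7, 14.6 and 14.5 in the spleen-primed and 18.6, 17.3 and 19.7 in the MLN-primed libraries. The log2 change against naive cells was 2.07 ± 0.08 and 2.40 ± 0.08 (limma adjusted p = 5.44e-09 and 1.74e-09). In the same libraries the proliferation genes Mki67 and Top2a together stood at 2.25 to 4.41 FPKM in naive, 215 to 323 in the spleen-primed and 169 to 295 in the MLN-primed libraries. Most of this sum in primed libraries is Top2a. Mki67 alone varied widely within a group, at 13.4 to 87.1 FPKM in the spleen-primed and 8.32 to 84.1 in the MLN-primed libraries. The part of these 2 genes in these results was not tested.

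Counted over all 45 tested members, spleen-primed cells had 41 higher and 2 lower than naive cells at a limma adjusted p under 0.05. Among all 10185 genes tested, 43.1% were called higher and 32.7% lower. MLN-primed cells had 42 higher and 2 lower, beside 45.5% and 33.2% of all genes. The genes that fell were Psme1 and Psme2b in both comparisons, which share the naive libraries. The members' median log2 change was 0.97 in the spleen-primed and 1.27 in the MLN-primed cells, beside 0.10 and 0.15 over all tested genes. Counted by library, 43 members were higher and 2 lower in every spleen-primed than in every naive library (44.5% and 33.7% of all tested genes), and 42 and 2 in every MLN-primed library (45.8% and 34.6%). The members' summed level was 0.505% ± 0.0312 of the library's FPKM in naive, 0.998% ± 0.0110 in the spleen-primed and 1.12% ± 0.0267 in the MLN-primed libraries (SD, n = 3).

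Scaling moved these sizes. Relative to all tested genes, the members' median was 0.87 higher in the spleen-primed and 1.13 higher in the MLN-primed cells as deposited, 0.86 and 1.11 under median-of-ratios scaling, and 0.56 and 0.75 under quantile normalisation. Of all calls, 56.8% were higher in spleen-primed cells as deposited and 46.6% under quantile normalisation. Of the members, 36 of the 41 higher calls in the spleen-primed and 36 of the 42 in the MLN-primed cells held in all 20 alternative settings.

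Between the primed groups, 19 members were higher and 2 lower in MLN-primed cells, beside 17.3% and 13.1% of all tested genes. Without overlap of libraries, 26 members were higher and 2 lower, beside 25.1% and 21%. The median log2 difference of the members was 0.23, beside 0.03 over all tested genes. By role, all 6 cap ATPases, 6 of the 11 other cap genes, all 4 core chaperones, Psme3, Psmc3ip and 1 of 14 core genes (Psma7, an alpha subunit) were higher. The core genes had a median difference of 0.16 and the cap genes of 0.31. The members that were lower were Psme1 (log2 -0.19 ± 0.06, limma adjusted p = 0.03) and Psme2 (-0.28 ± 0.08, adjusted p = 0.0202).

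The calls that held in all 20 alternatives were those of 12 genes: Psmc1, Psmc2, Psmc5, Psmc6, Psmd1, Psmd2, Psmd3, Psmd7, Psmd12, Psme3, Psmg1 and Psmg2. That of Psme1 was lost when any 1 of the 6 primed libraries was left out. That of Psme2 was lost without spleen-primed replicate 1 or 2 and without MLN-primed replicate 2 or 3. Those of Psma7, Psmc3, Psmc4, Psmd6, Psmg3, Psmg4 and Psmc3ip were each lost without at least 1 primed library. Those of Psma7, Psmc3, Psmc4, Psmd6 and Psmg4 were also lost under median-of-ratios scaling, and those of Psmc3, Psmg3 and Psmg4 under quantile normalisation. The call of Psmg4 was lost in 13 of the 20 alternatives, among them no variance trend, only the libraries compared and the replicate block.

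**Figure D3:**
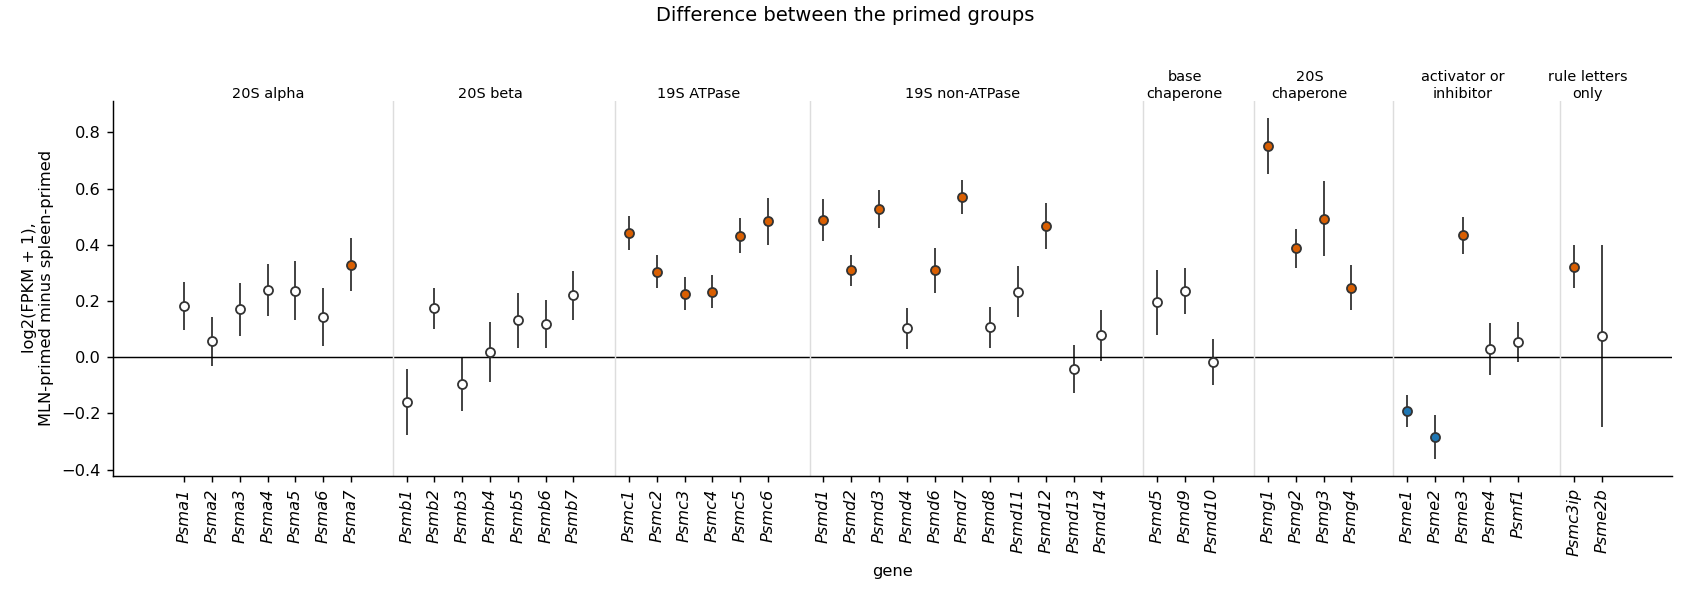
Difference in log2(FPKM + 1) between MLN-primed and spleen-primed cells for each tested member (points, with SE), by role; filled points passed limma's adjusted p of 0.05, orange for higher and blue for lower in MLN-primed cells. All 6 cap ATPases and all 4 core chaperones passed, and 1 of 14 core genes did.

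Within the primed groups, the core genes moved together from library to library. All 14 core genes were lowest in spleen-primed replicate 3 among the spleen-primed libraries, and all 14 were highest in MLN-primed replicate 1 among the MLN-primed libraries. Of the 17 cap genes, 9 were lowest and 9 highest in these same libraries. The same counts over all tested genes were not made. Their mean log2 level went the other way, deviating from its group by 0.0466 in spleen-primed replicate 3 and by -0.0538 in MLN-primed replicate 1. These 2 libraries also had the outermost trends of level with transcript length: relative to their groups, log2 levels changed by 0.0787 per doubling of length in spleen-primed replicate 3 and by -0.0888 in MLN-primed replicate 1. The median transcript length was 1201 bases for core alpha, 899 for core beta, 1613.5 for cap ATPase and 1904 for the other cap genes, beside 2771 over all tested genes. Psma2 and Psma3, with 2911 and 2846 bases, are the only core genes that exceed the median of all tested genes. They too were lowest in spleen-primed replicate 3 and highest in MLN-primed replicate 1 of their groups. These lengths are averages over annotated transcripts, not those of the forms expressed here, and the part of length in this pattern was not tested.

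Without these 2 libraries, the MLN-primed cells had 14 members higher and 4 lower. The slopes that remain are negative in both spleen-primed libraries (-0.0512 and -0.0275) and positive in both MLN-primed libraries (0.0629 and 0.0259). Each slope was taken relative to its own group, so those that remain balance the slope left out. They measure no length trend between the groups, and whether group and length trend go together there was not tested. The cap genes kept a median difference of 0.30 with 9 of 17 called higher, while the core genes had a median of 0.01 with none higher and 3 lower (Psmb1, Psmb3 and Psmb4, all core beta genes). With the length trend removed from every library, 22 members were higher and 1 (Psme2) lower, and 3 of 14 core genes and 12 of 17 cap genes were higher.

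**Figure D4:**
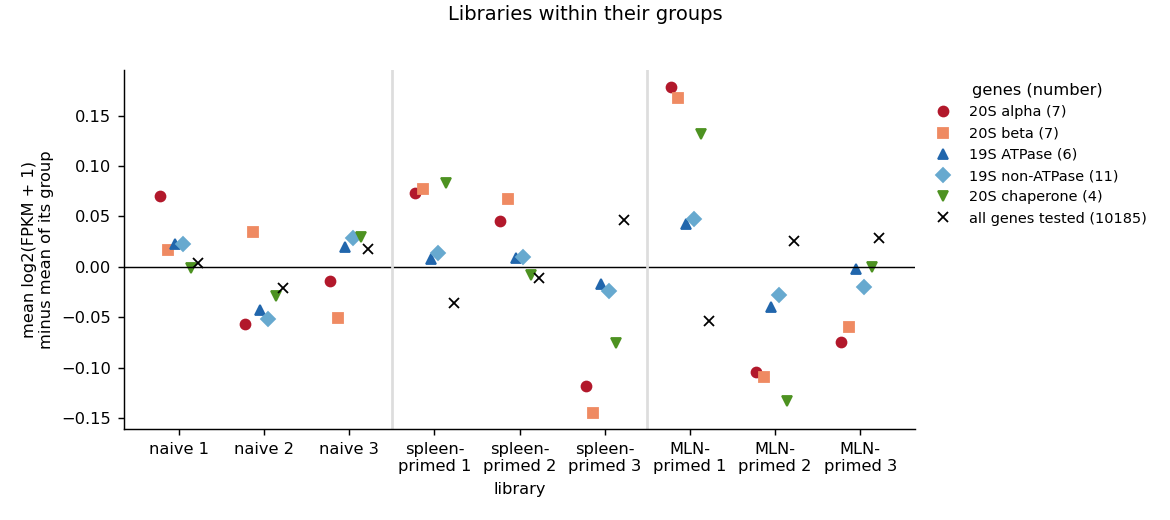
Mean log2(FPKM + 1) of each set of members, and of all tested genes, in each library minus the mean of its group. Each symbol is a set of genes in 1 library. The core alpha and beta genes lie lowest in spleen-primed replicate 3 and highest in MLN-primed replicate 1, while the cap genes stay closer to 0. The mean of all tested genes deviates the other way from the core in these 2 libraries.

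The catalytic subunits of the constitutive core were compared with their immunoproteasome replacements, which the rule leaves out. The summed level of Psmb8, Psmb9 and Psmb10 was 457 ± 8.86 FPKM in naive, 885 ± 57.4 in the spleen-primed and 701 ± 59.9 in the MLN-primed libraries, and that of Psmb5, Psmb6 and Psmb7 was 261 ± 5.70, 619 ± 51.2 and 694 ± 69.7 (SD, n = 3). The immunoproteasome genes thus made up 63.7% ± 0.377 of these 6 genes in naive, 58.9% ± 0.504 in the spleen-primed and 50.3% ± 0.415 in the MLN-primed libraries. No library of 1 group overlapped another group (exact two-sided permutation p = 0.1 for each pair, the smallest possible).

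The 3 pairs moved unequally. The ratio of Psmb10 to Psmb7 went from 1.01 ± 0.0434 in naive to 0.602 ± 0.0104 in the spleen-primed and 0.366 ± 0.0230 in the MLN-primed libraries. The ratio of Psmb8 to Psmb5 went from 2.98 ± 0.171 to 2.27 ± 0.116 and 1.80 ± 0.0470 in the same order. The ratio of Psmb9 to Psmb6 was highest in spleen-primed libraries, at 1.62 ± 0.0348, and stood at 1.26 ± 0.0116 in naive and 1.06 ± 0.00266 in MLN-primed libraries. No groups overlapped in any of these ratios, and within each library both genes of a ratio share the same scaling.

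**Figure D5:**
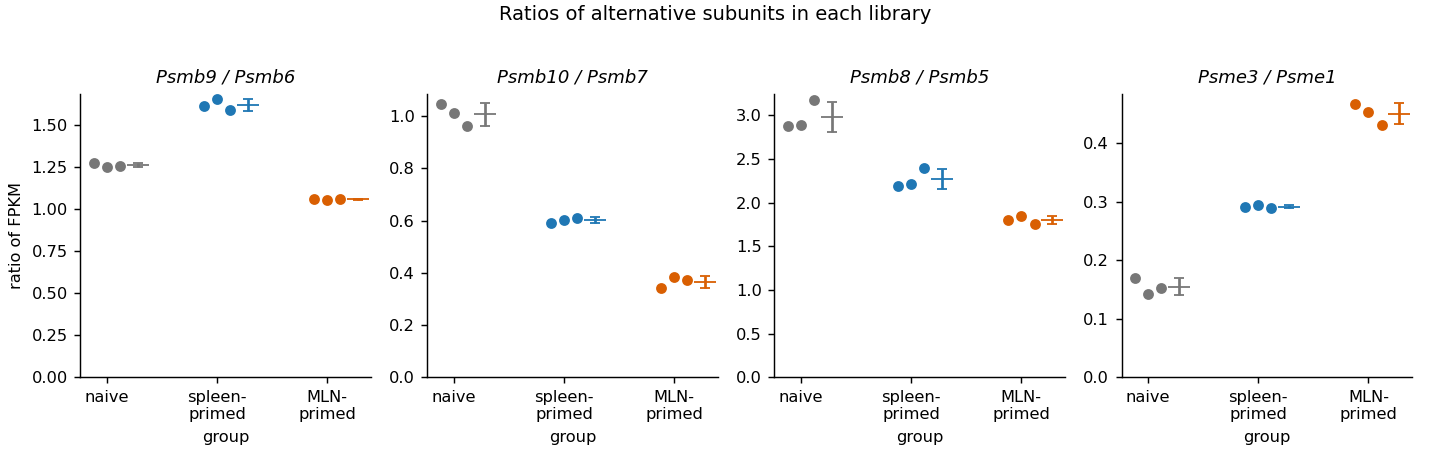
Ratios of FPKM of alternative subunits in each library (points), with the mean and SD of each group of 3; every axis starts at 0. Psmb10 to Psmb7 and Psmb8 to Psmb5 are highest in naive libraries, Psmb9 to Psmb6 in the spleen-primed and Psme3 to Psme1 in the MLN-primed libraries.

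Upstream sequence was read for 39 members, as 42 windows of 250 bases before a start site (RefSeq, GRCm38.p6), and searched on both strands for 3 motifs. None of the 3 contains another. The core of the antioxidant response element, TGACNNNGC, to which the transcription factors Nfe2l1 and Nfe2l2 bind, was found in 5 of 39 members (12.8%), beside 11.5% of all genes with a window and 14.1% of those tested. The CCAAT box, CCAAT, was found in 14 members (35.9%), beside 37.5% and 41.7%. The GC box, GGGCGG, was found in 21 members (53.8%), beside 35.4% and 64.9%. The members' shares were thus near those of the tested genes or below them.

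The windows of 3 members that hold TGACNNNGC are shown, cut before any annotated exon, to place the motif in a core, a cap and a chaperone gene. Psme3, which rose as well and holds no match, is shown beside them. Capitals mark the match, and each sequence runs in the direction of its gene. They lie at chr14:54618023-54618245 (minus strand) for Psmb5, chr11:107479278-107479483 (plus) for Psmd12, chr5:123227940-123228189 (plus) for Psmd9 and chr11:101315963-101316212 (plus) for Psme3.
Psmb5: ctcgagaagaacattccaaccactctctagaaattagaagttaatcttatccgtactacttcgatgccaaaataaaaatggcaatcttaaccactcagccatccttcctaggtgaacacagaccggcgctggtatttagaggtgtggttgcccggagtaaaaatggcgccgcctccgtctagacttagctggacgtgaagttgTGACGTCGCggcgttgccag
Psmd12: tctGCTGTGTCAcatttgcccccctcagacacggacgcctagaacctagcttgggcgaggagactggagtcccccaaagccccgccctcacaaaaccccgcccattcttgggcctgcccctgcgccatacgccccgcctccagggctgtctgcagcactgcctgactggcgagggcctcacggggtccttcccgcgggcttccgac
Psmd9: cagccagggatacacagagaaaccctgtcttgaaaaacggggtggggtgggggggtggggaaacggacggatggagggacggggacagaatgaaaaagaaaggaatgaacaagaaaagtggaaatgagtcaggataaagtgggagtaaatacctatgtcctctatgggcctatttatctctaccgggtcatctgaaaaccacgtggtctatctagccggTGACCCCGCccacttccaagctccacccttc
Psme3: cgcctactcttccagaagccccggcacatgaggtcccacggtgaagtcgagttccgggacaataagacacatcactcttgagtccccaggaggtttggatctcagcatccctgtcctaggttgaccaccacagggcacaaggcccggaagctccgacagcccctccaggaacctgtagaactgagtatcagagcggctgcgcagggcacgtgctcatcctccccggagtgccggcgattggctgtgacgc
In Psmd12 the match is on the opposite strand. A match describes letters only, and these windows say nothing of binding.

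Other genes of the pathway were taken from 5 lists of 36 genes, of which 35 were tested. In spleen-primed cells 19 were higher and 8 lower than in naive cells, in MLN-primed cells 21 and 9, and between the primed groups 10 were higher and 3 lower in MLN-primed cells (limma adjusted p under 0.05). Of all tested genes, 43.1% were higher and 32.7% lower in the first comparison, 45.5% and 33.2% in the second, and 17.3% and 13.1% in the third. Of 8 genes of proteasome-associated proteins, 7 rose in each primed group. The maturation factor of the core, Pomp, went from 127 ± 2.25 FPKM in naive to 309.8 ± 9.29 in the spleen-primed and 305 ± 7.87 in the MLN-primed libraries (SD, n = 3). The deubiquitinase Uchl5, which docks on the cap, went from 14.7 ± 1.53 to 35.1 ± 2.80 and 54.5 ± 2.56 FPKM, and its difference between the primed groups was 0.62 ± 0.09 (limma adjusted p = 0.000885).

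The list for Nfe2l1, a factor known to drive proteasome genes when proteasome activity is low, holds 7 genes. They are Nfe2l1 and Nfe2l2 themselves, Ddi2, Ngly1, Sel1l, Syvn1 and Vcp. Of the 7, 2 rose and 2 fell in spleen-primed cells and 3 rose and 3 fell in MLN-primed cells. Nfe2l1 and Nfe2l2 fell in both, and Ngly1 fell in MLN-primed cells only. Nfe2l1 itself fell by 1.05 ± 0.17 and by 0.79 ± 0.17 on the log2 scale (limma adjusted p = 0.000312 and 0.00192). Vcp, the segregase that extracts ubiquitinated proteins, went from 105 ± 7.996 FPKM in naive to 185 ± 0.569 in the spleen-primed and 224 ± 15.3 in the MLN-primed libraries (SD, n = 3). Nfe2l1 is activated by processing of its protein, which RNA levels do not show.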

How the data were processed

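RNA was extracted with a QIAGEN RNeasy Plus Micro kit and sequenced as TruSeq stranded mRNA libraries, per the labels' protocols. The authors deposited FPKM per gene, and the submitters' processing notes name TopHat, Cufflinks and the build mm10. Program versions, read filters and strand settings were not given in the sources used here. Being scaled for length and depth, FPKM keep no read numbers, and their totals differ between libraries. Steps in the low values put relative depth at 1 to 1.65 times that of the shallowest library. By this estimate it was 1 to 1.246 over the naive and 1.251 to 1.647 over the primed libraries. Depth thus goes with the contrast of primed and naive cells, and its part in the results was not tested. Read numbers are unknown, so no counting error is given. The deposited table has 24067 rows, of which 131 without a symbol hold 0.0479% of the FPKM and were left out.

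The 10185 genes that reached 1 FPKM in 3 or more of 9 libraries were tested on log2(FPKM + 1) with limma 3.58.1 in R 4.3.3 (mean-variance trend, 3 groups in 1 fit, Benjamini-Hochberg over all tested genes, adjusted p threshold 0.05). The log2 changes are on that scale and understate low genes, while the fold changes are ratios of mean FPKM. Single values were compared with exact permutation tests. Sums, ratios and figures used Python 3.11.15, numpy 2.4.6, pandas 2.3.3 and matplotlib 3.10.9, and transcripts were aligned with Biopython 1.88. The fit was also run on simulated data with noise drawn separately for each gene and library. That run does not cover shifts that genes of a library share.

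The members and the lists were chosen with earlier results of these data known. Per-library values are given for the catalytic core genes, the Psme, Psmf and Psmg genes, the 3 largest and 3 smallest changes in each comparison and members called against the majority; Psmd4, Psmd14, Psma4, Psmd9 and the pathway genes were named after their values were seen. The alternatives were another pseudocount (0.1), no filter or 5 FPKM, median-of-ratios scaling, quantile normalisation, other variance models, fewer libraries, a replicate block, removal of the length trend and each library left out.

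Replicate numbers come from the titles, which do not say what they mark. Deviations of same-numbered naive and spleen-primed libraries had correlations of 0.160, 0.116 and 0.236, and those of the other comparisons ran from -0.241 to 0.645. Libraries with different numbers ran from -0.698 to 0.512. The correlations therefore do not show whether the numbers mark pairs, and the main fit used no block.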

Additional observations from a re-analysis of the deposited data

How the results depend on the processing

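The number of members called higher stayed within 1.5 times its value in every alternative. The number called lower in spleen-primed cells was 1 without the filter and 5 under quantile normalisation. In MLN-primed cells against naive it was 1 without the filter. In both comparisons it ran from 1 to 2 with a library left out. In the comparison of primed groups it was 1 without the filter, under quantile normalisation, without the variance trend and with the length trend removed, 4 without spleen-primed 3 and MLN-primed 1 together, and 0 to 2 with 1 library left out.

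The members' median change in spleen-primed cells was 0.85 under median-of-ratios scaling, 0.49 under quantile normalisation, 1.004 without both libraries, 0.80 with the length trend removed and 0.95 to 1.004 with 1 library left out. In MLN-primed cells the same settings gave 1.11, 0.71, 1.19, 1.01 and 1.19 to 1.33. In the comparison of primed groups the median was 0.18 under median-of-ratios scaling, 0.17 under quantile normalisation, 0.15 without both libraries and 0.16 to 0.26 with 1 library left out.

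Signs of members turned in these settings. Under quantile normalisation, the changes in spleen-primed and MLN-primed cells were -0.024 and -0.17 for Psmb1, -0.20 and -0.16 for Psmd4, -0.30 and -0.55 for Psme2, and -0.24 and -0.0351 for Psmg4. With the length trend removed they were -0.031 and -0.31 for Psme2 and -0.41 and -0.15 for Psmg4. Psme2 in MLN-primed cells was -0.11 under median-of-ratios scaling and -0.013 without both libraries (-0.013 to 0.10 with 1 left out). Between the primed groups, Psmb5 and Psmb6 were -0.024 and -0.014 without both libraries, and Psme4 was -0.015 under median-of-ratios scaling and -0.0036 under quantile normalisation. With 1 library left out, Psme4 ran from -0.016 to 0.088, Psmd13 from -0.12 to 0.020 and Psme2b from -0.21 to 0.47. Of the members not called between the primed groups, the lowest difference over all alternatives was also below 0 for Psma2 (-0.088), Psma6 (-0.046), Psmb4 (-0.19), Psmd5 (-0.0024) and Psmd14 (-0.082), and Psmd10 reached 0.032. Under median-of-ratios scaling, the summed FPKM of the core was 1760 in naive cells. That of the cap was 943, 1885 and 2219 in naive, spleen-primed and MLN-primed cells. That of activators and inhibitor was 775, 773 and 679.8 in the same order. The causes were not tested.

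With the replicate number as a block, 41, 42 and 20 members were higher and 2 lower in each comparison, in the order used above. It changed calls only between the primed groups, and whether the numbers pair libraries is not known. FPKM keep no read numbers, so the depth behind low genes such as Psme2b is unknown.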

Other observations

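Of 10 genes of ubiquitin and its enzymes, 5 were higher and 3 lower in spleen-primed than in naive cells, and 5 and 4 in MLN-primed cells (limma adjusted p under 0.05). Of all tested genes, 43.1% were higher and 32.7% lower in spleen-primed cells, and 45.5% and 33.2% in MLN-primed cells, so these shares lie near the background. Of 7 shuttle factors, which carry ubiquitinated proteins to the cap, 2 were higher and 3 lower in spleen-primed cells, and 3 and 2 in MLN-primed cells. Between the primed groups 4 of the 7 shuttle factors were higher in MLN-primed cells and none was lower, beside 17.3% and 13.1% of all tested genes. The medians of these lists lay between -0.10 and 0.24 on the log2 scale in the 3 comparisons, and the difference from the proteasome genes was not tested.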
